A study of Mus musculus with 6 samples.

Results

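The 10 genes described here are immediate early genes, which cells transcribe within minutes of a stimulus from factors already present: Fos, Fosb, Jun, Junb, Egr1, Ier2, Ier3, Atf3, Btg2 and Dusp1. They were taken by symbol from a table of 41388 Ensembl identifiers, each matched 1 row, and all 10 passed the filter on low counts. Bulk RNA sequencing measured polyadenylated RNA in the livers of BALB/c mice that had received carbon tetrachloride (CCl4), a liver toxin, for 5 weeks to cause fibrosis. One group of 3 libraries, labelled treated Al/NP high, received nanoparticles carrying the bisphosphonate alendronate (AL/NP) at 4 mg/kg, injected 2 times per week in the last 2 weeks. The other group of 3, labelled untreated, served as the fibrotic control, so CCl4 was common to both. The labels attach the injection protocol to every sample and do not say whether controls received empty particles or mock injections. They give neither the age of the mice nor the time between the last injection and tissue collection, and they do not state that each replicate is a separate animal, so p-values measure the spread between these libraries.

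Immediate early genes are switched on mainly by MAP kinases acting through serum response factor (SRF) with its ternary complex partners, and by kinases acting on CREB at cyclic AMP response elements. Their products fall into transcription factors that carry the signal on and into inhibitors that end it, and most of their messenger RNAs decay quickly. In liver they are known for their response to partial hepatectomy, toxic injury, inflammatory cytokines and the handling of tissue.

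Promoter sequence is shown for the pair of genes whose libraries separated by group, Fos and Fosb, and for the pair with a full cyclic AMP response element, Btg2 and Dusp1. Each run lies before the RefSeq start (GRCm38.p6), ends before any annotated exon, and reads 5′ to 3′ on the gene's strand. Capitals mark TGACG, the half-site of that element, on either strand, the full element TGACGTCA, the TATA box TATAAA and the EGR motif GCGGGGGCG.
Fos, chr12:85473640-85473889, plus strand: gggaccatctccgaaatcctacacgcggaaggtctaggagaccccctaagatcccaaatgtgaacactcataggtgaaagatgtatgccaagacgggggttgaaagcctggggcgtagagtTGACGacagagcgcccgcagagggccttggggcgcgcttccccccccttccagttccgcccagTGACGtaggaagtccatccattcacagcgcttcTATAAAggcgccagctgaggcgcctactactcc
Fosb, chr7:19310052-19310295, minus strand: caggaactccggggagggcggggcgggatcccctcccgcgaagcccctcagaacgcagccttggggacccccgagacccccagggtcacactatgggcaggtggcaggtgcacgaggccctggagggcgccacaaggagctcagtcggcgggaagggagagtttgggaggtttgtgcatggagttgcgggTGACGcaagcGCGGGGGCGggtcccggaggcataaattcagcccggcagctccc
Btg2, chr1:134079156-134079405, minus strand: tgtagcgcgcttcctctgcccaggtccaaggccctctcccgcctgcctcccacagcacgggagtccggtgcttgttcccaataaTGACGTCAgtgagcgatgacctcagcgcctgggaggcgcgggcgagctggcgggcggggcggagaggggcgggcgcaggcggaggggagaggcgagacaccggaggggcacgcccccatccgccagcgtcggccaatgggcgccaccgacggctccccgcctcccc
Dusp1, chr17:26508520-26508722, minus strand: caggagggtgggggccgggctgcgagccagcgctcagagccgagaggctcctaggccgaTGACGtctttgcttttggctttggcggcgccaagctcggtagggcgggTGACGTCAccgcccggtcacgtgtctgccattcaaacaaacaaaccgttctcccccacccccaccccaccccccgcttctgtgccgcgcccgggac

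Promoters of 8 of the 10 genes were in the RefSeq table, all but Egr1 and Ier2. In the 250 bases before the start, TGACGTCA was found in 2 of these 8, Btg2 and Dusp1, and in 1.55% of 32851 promoters. The half-site TGACG, which TGACGTCA contains, was chosen after the full element had been searched. It was found in 6 of 8 (Fos, Fosb, Junb, Atf3, Btg2 and Dusp1) and in 17.8% of all promoters. TATAAA was found in Fos, where 12.4% of all promoters hold it, and GCGGGGGCG in Fosb, where 2.57% do. None of the 8 held the AP-1 site TGACTCA (4.46% of all promoters), GCGTGGGCG (0.536%) or the CArG box bound by SRF (1.47%) in this window. These matches describe letters only.

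Of the 10 genes, 0 passed the adjusted threshold between AL/NP and control, where 0.0816% of all 15939 genes tested did. Fos and Fosb were higher in all 3 AL/NP libraries than in all 3 controls, a separation of groups seen in 29.5% of all genes in either direction. Egr1 was lower in AL/NP replicates 1 and 3 than in any control. In Atf3, Dusp1, Ier3 and Ier2 the difference of the means came largely from AL/NP replicate 1. In Jun and Btg2 the group means were almost equal.

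Fos and Fosb encode the DNA-binding FOS partners of the AP-1 transcription factor, which pair with JUN proteins. Fos (chromosome 12, 85473890 to 85477273, protein coding) measured 13.7, 10.7 and 11.9 CPM (the usual library-scaled count, here with TMM factors) in AL/NP replicates 1 to 3. The controls measured 10.6, 6.66 and 5.84 CPM. All 3 AL/NP libraries lay above all 3 controls, but the gap was narrow, from 10.63 CPM in the highest control to 10.68 CPM in the lowest AL/NP library. The log2 fold change of AL/NP over control was 0.65 (SE 0.24), with an unadjusted p of 0.0251 and an adjusted p of 0.203 in edgeR's quasi-likelihood test, so Fos did not pass the threshold of 0.05. Fosb (chromosome 7, 19302696 to 19310051, protein coding) was the least abundant of the 10, with 51, 47 and 30 counts under AL/NP and 19, 24 and 11 in controls. Scaled, that was 1.77, 1.29 and 0.870 CPM against 0.546, 0.663 and 0.342 CPM. Again all AL/NP libraries were above all controls, and by a wider margin than for Fos. Fosb had the highest fold change of the 10, a log2 fold change of 1.33 (SE 0.40; edgeR adjusted p = 0.156). These 2 genes separated the groups with TMM, library totals and DESeq2 size factors alike, and with library totals Atf3 did so too.

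Jun and Junb encode the JUN partners of AP-1. Jun (chromosome 4, 95049034 to 95052222, protein coding) measured 61.7, 23.6 and 29.97 CPM in AL/NP replicates 1 to 3 and 20.3, 12.1 and 80.6 CPM in controls. The groups overlapped fully, because control replicate 3 had the highest level of all 6 libraries and the other 2 controls the lowest. Its log2 fold change was 0.03 (SE 0.70, adjusted p = 0.985, edgeR), but 1.24 (SE 0.44, adjusted p = 0.220) without control replicate 3 and -0.49 without AL/NP replicate 1. The direction of Jun therefore depended on single libraries. Junos, on the opposite strand, shares 232 exonic bases with Jun and had 4.87 counts per 100 of Jun. Junb (chromosome 8, 84974484 to 84978718, protein coding) measured 121, 103 and 50.8 CPM with AL/NP and 65.7, 58.4 and 31.7 CPM in controls. AL/NP replicates 1 and 2 were above every control, whereas AL/NP replicate 3 lay among them. The log2 fold change of Junb was 0.82 (SE 0.36, adjusted p = 0.255, edgeR). Prdx2, on the opposite strand, shares 173 exonic bases with Junb and had 128 counts per 100 of Junb. Because the strand setting is not given in the sources used here, these genes may share reads, and the log2 fold change of Prdx2 was -0.17 (SE 0.13).

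Egr1, a zinc finger transcription factor and one of the most used readouts of MAP kinase signalling, had the lowest fold change of the 10. It lies on chromosome 18, 34859823 to 34864984, and is protein coding. AL/NP replicates 1 to 3 measured 23.5, 59.2 and 34.4 CPM, against 81.5, 58.4 and 90.8 CPM in controls. AL/NP replicates 1 and 3 were below every control, and AL/NP replicate 2 was just above control replicate 2. The means were 39.0 ± 18.3 CPM (SD, n = 3) with AL/NP and 76.9 ± 16.6 CPM in controls, a log2 fold change of -0.98 (SE 0.32). The adjusted p was 0.177 in edgeR and 0.0508 in DESeq2, the lowest that any of the 10 genes reached in any setting tried. In every setting tried, Egr1 stayed lower with AL/NP, between -1.41 and -0.72 on the log2 scale.

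The ratio of Fos to Egr1 within a library does not depend on how libraries are scaled. On the log2 scale of counts it was -0.77, -2.47 and -1.53 in AL/NP replicates 1 to 3 and -2.94, -3.13 and -3.96 in controls, so the groups did not overlap. The log2 ratio of Junb to Egr1 was 2.37, 0.79 and 0.56 with AL/NP and -0.31, -0.0020 and -1.52 in controls, again without overlap. The other 3 pairs formed, Junb to Jun, Fosb to Fos and Atf3 to Egr1, had ratios that overlapped between the groups. Counts of Junb exceeded those of Egr1 in all 3 AL/NP libraries and in none of the controls, with control replicate 2 nearly level. These pairs were picked after their values were seen and are given without a test. Both pairs that separated have Egr1 as the denominator, so they are not independent. How often pairs of other genes separate the groups was not counted.

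**Figure D1:**
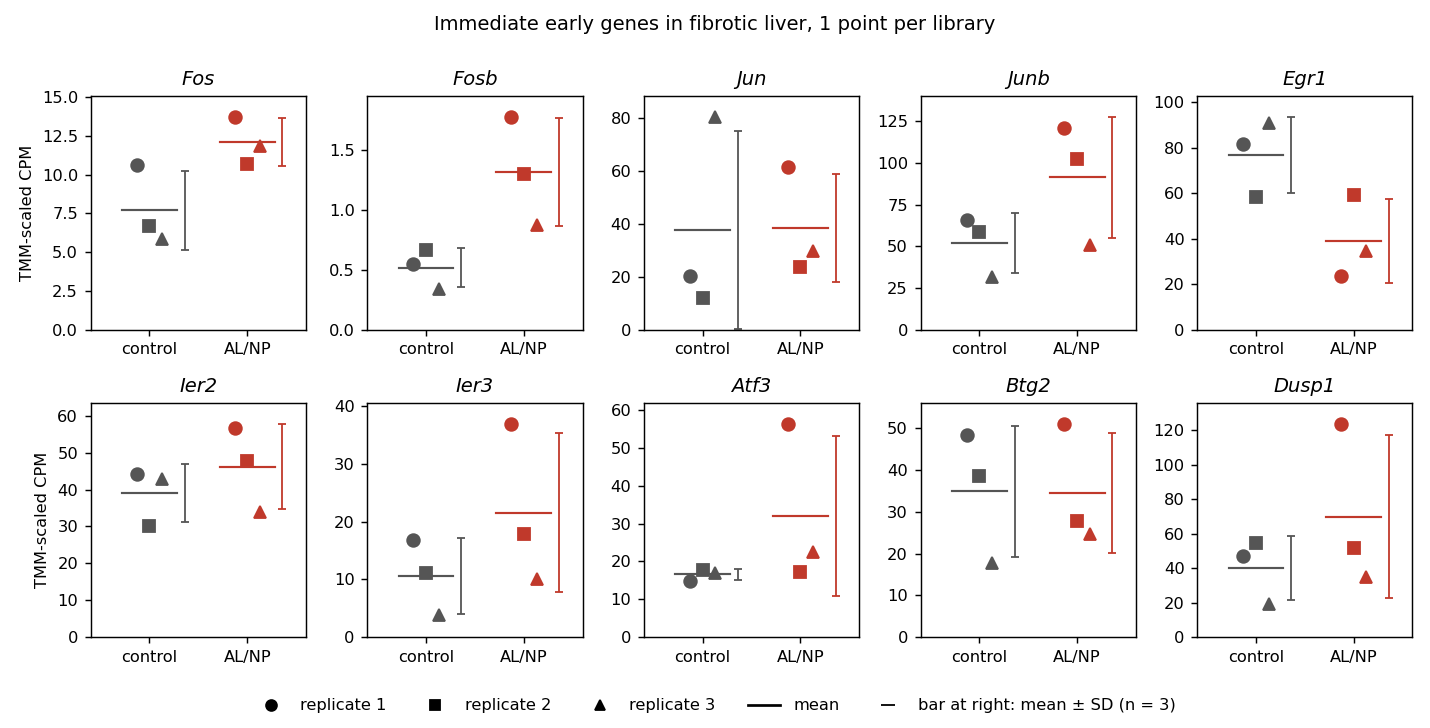
TMM-scaled CPM (vertical axes, linear from 0, one scale per gene) of the 10 immediate early genes in the 3 control and 3 AL/NP libraries, with marker shape for the replicate, a line for the mean and a bar for the SD (n = 3). Fos and Fosb separate the groups, Egr1 is lower in 2 of 3 AL/NP libraries, and AL/NP replicate 1 (red circle) is the highest AL/NP library for every gene but Egr1.

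Atf3 encodes a bZIP repressor and activator induced by cell stress, and belongs both to the immediate early genes and to the integrated stress response. Atf3 (chromosome 1, 191170296 to 191218039, protein coding) measured 56.2, 17.3 and 22.4 CPM with AL/NP. The controls were tight, at 14.96, 17.7 and 17.1 CPM. Only AL/NP replicate 1 stood far above them, and AL/NP replicate 2 lay inside their range. The log2 fold change was 0.94 (SE 0.40, adjusted p = 0.246, edgeR), and 0.26 (SE 0.17) without AL/NP replicate 1.

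Ier2 and Ier3 carry the name immediate early response. Ier3, also known as IEX-1, acts on cell survival and on ERK signalling. Ier3 (chromosome 17, 35821684 to 35822923, protein coding) measured 36.8, 17.8 and 9.98 CPM with AL/NP and 16.8, 11.1 and 3.85 CPM in controls. AL/NP replicates 1 and 2 were above every control and AL/NP replicate 3 was among them. Its log2 fold change of 1.02 had a wide error (SE 0.60, adjusted p = 0.368, edgeR) and was 0.39 without AL/NP replicate 1. Ier2 (chromosome 8, 84661331 to 84662852, protein coding), a nuclear protein of the response, measured 56.8, 47.8 and 33.97 CPM with AL/NP and 44.2, 30.1 and 42.96 CPM in controls. The libraries of the 2 groups were interleaved, and the log2 fold change was 0.24 (SE 0.22, adjusted p = 0.559, edgeR). Without AL/NP replicate 1 it was 0.07.

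Btg2 and Dusp1 belong to the arm that restrains the response. Dusp1, the phosphatase MKP-1, removes phosphate from p38, JNK and ERK. Dusp1 (chromosome 17, 26505590 to 26562128, protein coding) measured 123, 51.9 and 34.7 CPM with AL/NP and 47.1, 54.6 and 19.3 CPM in controls. AL/NP replicate 1 had more than any other library, and the other 2 AL/NP libraries lay within the range of the controls. The log2 fold change was 0.80 (SE 0.52, adjusted p = 0.413, edgeR) with all libraries and 0.10 without AL/NP replicate 1. On the opposite strand, Gm8225 lies within Dusp1, shares 0 exonic bases with it and had 24.9 counts per 100 of Dusp1. Ergic1, also on the opposite strand, shares 11 exonic bases with Dusp1 and had 81.4 counts per 100 of Dusp1. The log2 fold change of Ergic1 was 0.01 (SE 0.13). Btg2 is an antiproliferative gene that is also a target of p53. Btg2 (chromosome 1, 134075170 to 134079120, protein coding) measured 50.9, 27.9 and 24.7 CPM with AL/NP and 48.3, 38.7 and 17.6 CPM in controls. The groups covered the same range, at a log2 fold change of -0.02 (SE 0.39, adjusted p = 0.983, edgeR), which was 0.29 without control replicate 1 and -0.41 without AL/NP replicate 1.

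**Figure D2:**
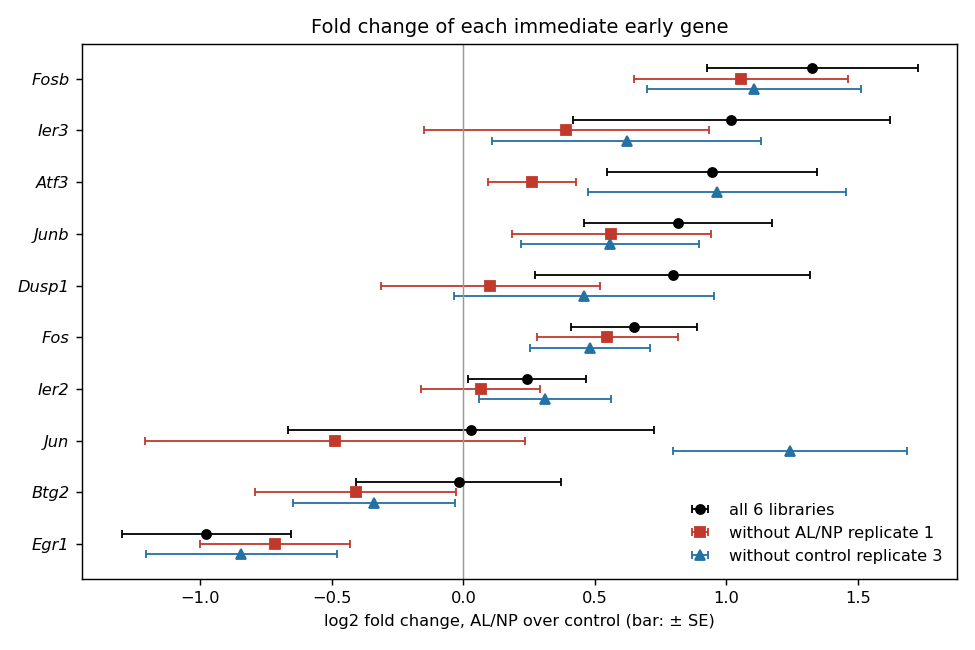
Log2 fold change of AL/NP over control (horizontal axis, bar ± SE, edgeR) for each of the 10 genes with all 6 libraries (black circles), without AL/NP replicate 1 (red squares) and without control replicate 3 (blue triangles). Every gene but Jun stays on its side of 0 in the settings shown, though Btg2 starts from only -0.02. Atf3 goes from 0.94 to 0.26 without AL/NP replicate 1. Jun goes from 0.03 to 1.24 without control replicate 3 and to -0.49 without AL/NP replicate 1.

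Over the 10 genes, edgeR, DESeq2 and limma-voom each called 0 at an adjusted p of 0.05, and DESeq2 called 5.17% of the genes to which it gave an adjusted p. At an unadjusted p under 0.05 there were 4 of 10, against 19.6% of all genes. Of these, 3 were higher with AL/NP (Fos, Fosb and Atf3; 9.37% of all genes) and 1 was lower (Egr1; 10.3%). The groups did not overlap in 2 of the 10, Fos and Fosb, both higher with AL/NP. That share lies below the 29.5% of all genes without overlap in either direction and near the 14.5% higher with AL/NP. The fold change was above 0 in 8 of 10 genes and in 49.97% of all genes. The median log2 fold change of the 10 was 0.72, beside -0.00025 over all genes tested, and it was 0.18 without AL/NP replicate 1.

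Among the AL/NP libraries most of the 10 genes had the same highest library, and in controls most had the same lowest. AL/NP replicate 1 was the highest of the AL/NP libraries in 9 of 10 genes, all but Egr1, of which it had the lowest level; 37.1% of all tested genes were highest there. It was the highest of all 6 libraries in 8 of 10 genes, all but Jun and Egr1, against 24.4% of all tested genes. AL/NP replicate 3 was the lowest of its group in 6 of 10 genes, against 32.0% of all tested genes. Control replicate 3 was the lowest of all 6 libraries in 6 of 10 genes (Fos, Fosb, Junb, Ier3, Btg2 and Dusp1), against 29.1% of all tested genes, and the highest in Jun and Egr1. Relative to the control mean, the mean log2 level of the 10 genes was 1.01, 0.39 and 0.04 in AL/NP replicates 1 to 3 and 0.26, -0.02 and -0.24 in controls 1 to 3. On this scale AL/NP replicate 3 was below control replicate 1, so the summed profile did not separate the groups.

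**Figure D3:**
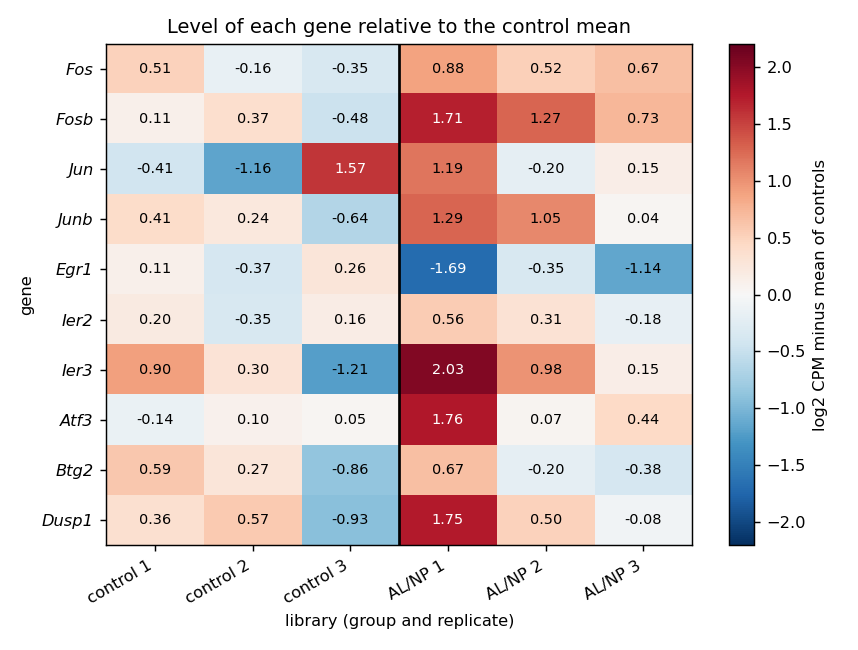
Log2 CPM of each gene (rows) in each library (columns) minus its mean in controls, with the value printed in the cell and red for higher, blue for lower. AL/NP replicate 1 is red in every row but Egr1 (-1.69), and control replicate 3 is blue in 6 rows but red in Jun (1.57).

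Library totals ranged from 30554483 to 39838428 counts, and 3 counts corresponded to 0.0826 to 0.104 CPM, which covers counting error only. Libraries at the ends of these profiles also stood apart elsewhere. Control replicate 3 had the lowest TMM factor, 0.809, and the highest share of mitochondrially encoded counts, 26.7%, against 11.96% to 19.8% in the other libraries. AL/NP replicate 1 had 1.04% of its counts in Gm42418, a predicted gene, against 0.190% to 0.249% elsewhere. The part of these differences in the values above was not tested.

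In bulk tissue, more RNA per cell and more cells of a type cannot be told apart, so marker genes were summed per library. Hepatocyte markers (6 genes, Alb foremost) lay between 45783 and 52676 CPM with AL/NP and between 56273 and 74588 CPM in controls. Macrophage markers (6 genes) lay at 340.1 to 534 CPM with AL/NP and 160.0 to 246 CPM in controls, monocyte markers (4 genes) at 12.3 to 26.6 and 5.69 to 10.9 CPM, and neutrophil markers (7 genes) at 34.6 to 74.3 and 18.9 to 34.0 CPM. In these 4 lists the sums did not overlap between groups. EdgeR called 0 of their members (0.0816% of all genes), and DESeq2 (5.17% of all genes) called 3 macrophage, 3 monocyte and 3 neutrophil markers higher and 1 hepatocyte marker lower. T cell markers (5 genes) lay at 3.22 to 18.8 CPM with AL/NP and 2.10 to 2.89 CPM in controls, but this separation rested on Cd3e, the T cell marker that DESeq2 called higher. Without Cd3e, a choice made after seeing the values, the sums were 1.79 to 2.19 CPM and 1.38 to 2.39 CPM and overlapped. Ly6g, which defines neutrophils, averaged 0.0783 CPM, under the level of 3 counts. AL/NP replicate 1, with the highest levels of most immediate early genes, had the lowest sums of the AL/NP group for macrophages, monocytes and neutrophils. Of the markers in these lists, Mpeg1 (154 CPM against 131 and 138 CPM) and Ly6c2 (2.78 against 2.67 and 1.77 CPM) were instead highest of the group there. All their other markers were lowest of the group there. The sums overlapped between groups for Kupffer cell, B cell, stellate cell, endothelial, cholangiocyte and erythroid markers. The cholangiocyte sum was mostly Spp1, at 725 of 767 CPM in AL/NP replicate 1. The other cholangiocyte markers, Krt19, Krt7, Epcam and Sox9, were each highest of all libraries in AL/NP replicate 1. Stellate cell markers reached 401 CPM in control replicate 3, where Jun and Egr1 were highest, against 147 and 221 CPM in the other controls. Col1a1 alone made up 219 CPM of that sum. All stellate markers but Lrat were highest of the controls there, and Lrat measured 10.1 CPM against 16.0 CPM in control replicate 1. The part of cell composition in the levels of the 10 genes was not tested.

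Per kilobase of merged exons, the scale on which levels of different genes can be compared, Ier2 led in controls with 25.7 ± 5.12 CPM per kb (SD, n = 3). It was followed by Junb (22.6 ± 7.79), Egr1 (17.2 ± 3.71), Btg2 (12.7 ± 5.72), Dusp1 (12.2 ± 5.61), Jun (11.8 ± 11.7), Ier3 (9.36 ± 5.75) and Atf3 (7.70 ± 0.667). The ranges of neighbours in this order overlapped from Ier2 down to Atf3. Fos, at 3.28 ± 1.09 CPM per kb, lay below the range of Atf3, and Fosb, at 0.0828 ± 0.0260 CPM per kb, below that of Fos. The lengths join all annotated transcripts, which lowers the value of genes with long rare forms. With AL/NP, Junb averaged 39.7 ± 15.8 and Egr1 8.70 ± 4.09 CPM per kb.

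Other genes of the response were read from lists and are given by counts. Over all 15939 genes tested, 49.97% were above 0, the median was -0.00025 and edgeR called 0.0816%. DESeq2 called 5.17% of the 16367 genes it adjusted, and a call without a named tool is edgeR's. In each list up to 3 genes with the smallest p-values are named. Of the other AP-1 family subunits, 12 of 12 were tested, 9 were above 0 and 0 were called, and the median was 0.42 on the log2 scale, or 0.26 without AL/NP replicate 1. They were led by the repressor Jdp2 at 1.03 (SE 0.32, adjusted p = 0.159, edgeR), the small Maf protein Mafg at -0.64 (SE 0.22, adjusted p = 0.194) and Jund at 0.67 (SE 0.26, adjusted p = 0.216).

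Other immediate early transcription factors had 17 of 19 members tested, 14 above 0 and 0 called. The median was 0.67 on the log2 scale with all libraries and 0.13 when AL/NP replicate 1 was left out. Cebpd, a C/EBP factor of the acute phase, measured 7.85, 5.78 and 6.79 CPM with AL/NP and 1.52, 2.79 and 1.83 CPM in controls, at a log2 fold change of 1.73 (SE 0.28). Klf2, known for its response to flow in endothelium, measured 13.3, 12.8 and 12.0 CPM against 5.34, 5.99 and 7.39 CPM, at 1.03 (SE 0.17). Klf4 was at 1.62 (SE 0.32). In these 3 genes, named for the smallest p-values, the groups did not overlap, yet their adjusted p in edgeR was 0.0783, 0.0783 and 0.0970. Over the list, 7 of 17 separated higher with AL/NP and 0 lower, beside 14.5% and 15% of all genes. DESeq2 called 5 of the 17, beside 5.17% of all genes.

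Secreted and surface immediate early genes had a median of 1.17 on the log2 scale, the highest of the response lists though below the monocyte (1.46) and neutrophil (1.28) markers. Of 16 genes 14 were tested and 11 were above 0. EdgeR called 0 of them, beside 0.0816% of all genes, and DESeq2 called 7, beside 5.17%. Ccn1, a matricellular protein and a target of SRF and YAP, measured 61.9, 49.6 and 39.7 CPM with AL/NP and 19.5, 20.99 and 22.0 CPM in controls, at 1.27 (SE 0.18, adjusted p = 0.0617, edgeR). Ccn2, its relative and a profibrotic factor, was at 1.83 (SE 0.36, adjusted p = 0.0998), and Plaur, the urokinase receptor, at 1.16 (SE 0.25, adjusted p = 0.108). All 3 genes, named for the smallest p-values of the list, separated the groups. Over the list, 7 of 14 separated higher with AL/NP and 1 lower, beside 14.5% and 15% of all genes.

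Among the other feedback regulators, 25 of 25 were tested, 15 were above 0 and 0 were called, and the median was 0.10 on the log2 scale. With 1 library left out that median went from -0.05 (without control replicate 3) to 0.18 (without control replicate 1), so its sign depended on single libraries. Dusp8, a phosphatase for JNK and p38, was at 2.32 (SE 0.55, adjusted p = 0.124, edgeR) and rested in part on AL/NP replicate 1, without which it was at 1.51. Zfp36l2, which destabilises messenger RNA, was at 0.56 (SE 0.16, adjusted p = 0.144), and Dusp16, a JNK phosphatase, at 0.97 (SE 0.29, adjusted p = 0.152), or 0.57 without AL/NP replicate 1.

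Of the upstream kinases and factors, 19 of 19 were tested, 9 were above 0 and 0 were called, and the median was -0.02 on the log2 scale, or 0.11 without AL/NP replicate 1. The 3 smallest p-values were those of Srf at 0.74 (SE 0.15, adjusted p = 0.102, edgeR), the p38-activated kinase gene Mapkapk2 at 0.52 (SE 0.15, adjusted p = 0.144) and the SRF coactivator gene Mrtfa at 0.44 (SE 0.14, adjusted p = 0.162). Srf measured 24.1, 19.95 and 20.0 CPM with AL/NP and 12.2, 14.2 and 11.8 CPM in controls, without overlap. Over the list, 4 of 19 separated higher with AL/NP and 2 lower, beside 14.5% and 15% of all genes. Later AP-1 target genes had a median of 0.71, with 13 of 15 tested, 11 above 0 and 0 called; without AL/NP replicate 3 the median was 0.36. Cd44, a hyaluronan receptor, was at 0.81 (SE 0.14, adjusted p = 0.0783), the metallothionein gene Mt1 at 1.99 (SE 0.59, adjusted p = 0.161) and Vegfa at -0.88 (SE 0.28, adjusted p = 0.171). Mt1 was at 1.28 without AL/NP replicate 1.

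Of the partners of Atf3 in the integrated stress response, 10 of 10 were tested, 9 were above 0 and 0 were called. Their median on the log2 scale was 0.43, and 0.21 without AL/NP replicate 1. Chac1, a glutathione-degrading enzyme, was at 2.47 (SE 0.67, adjusted p = 0.144, edgeR), and 1.29 without AL/NP replicate 1, where it measured 13.9 CPM against 2.48 and 3.25 CPM in the other AL/NP libraries. Ddit4, an inhibitor of mTORC1, was at 0.74 (SE 0.22, adjusted p = 0.155) and Asns, asparagine synthetase, at 0.61 (SE 0.22, adjusted p = 0.199). The p53 targets beside Btg2 had a median of 0.12, with 13 of 13 tested, 7 above 0 and 0 called. With 1 library left out the median ranged from -0.01 (without AL/NP replicate 1) to 0.08 (without control replicate 2). Eda2r was at -1.50 (SE 0.47, adjusted p = 0.166), Aen at 0.57 (SE 0.20, adjusted p = 0.196) and the cell cycle inhibitor Cdkn1a at 1.35 (SE 0.47, adjusted p = 0.196). Without AL/NP replicate 1 Cdkn1a was at 0.87.

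Heat shock genes, often read beside immediate early genes when tissue stress is judged, had 12 of 12 tested and 11 above 0, and their median was 0.69. Called higher were 2 of them, beside 0.0816% of all genes called in either direction: Hspa1b at 2.43 (SE 0.23, adjusted p = 0.0480, edgeR) and Hspa1a at 2.27 (SE 0.30, adjusted p = 0.0493), which are near-identical copies whose reads may be split. The call was lost without any 1 of 5 libraries and held without control replicate 1. Hspa1b measured 48.5, 60.0 and 49.0 CPM in AL/NP replicates 1 to 3, and the cochaperone gene Bag3 65.4, 50.4 and 58.8 CPM. In neither did AL/NP replicate 1 stand apart from the other AL/NP libraries. Bag3 was at 1.19 (SE 0.17, adjusted p = 0.0617).

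**Figure D4:**
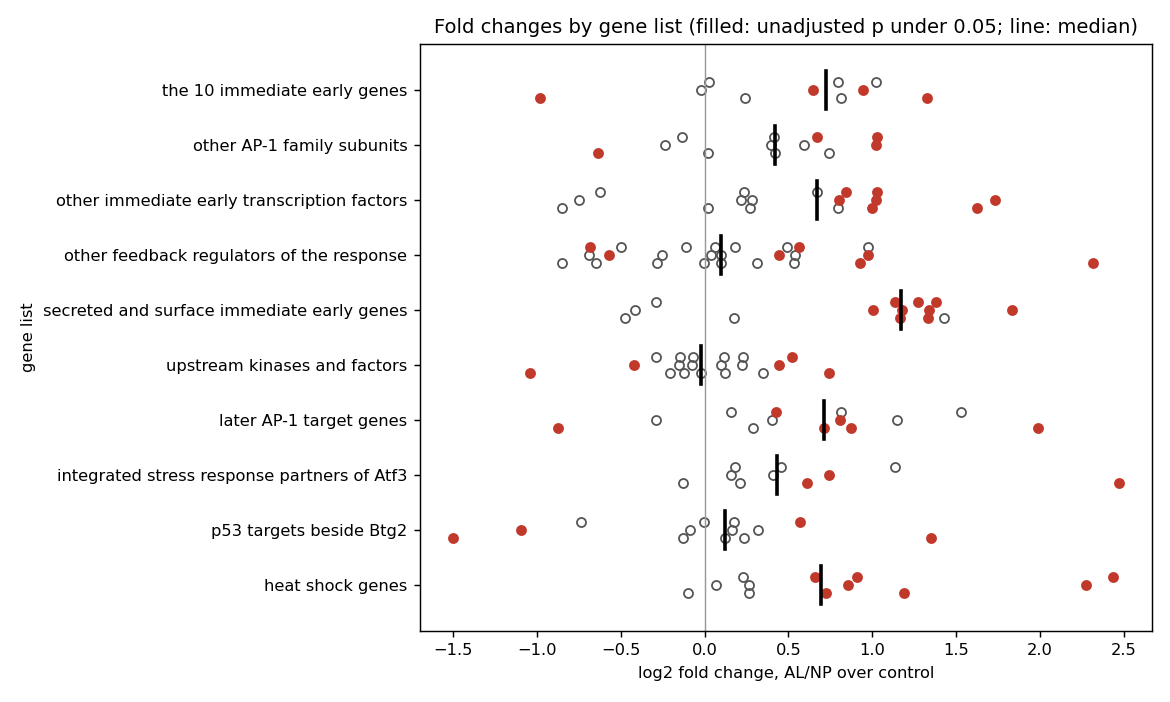
Log2 fold change of AL/NP over control (horizontal axis) for every tested gene of each list (rows), filled where the unadjusted edgeR p was under 0.05, with a line at the list's median. The secreted and surface list has the median farthest to the right, 1.17, and the upstream list sits at -0.02.

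The mean profile of the 10 genes over the 6 libraries was compared with that of every other gene averaging at least 1 CPM, by the root mean square difference of log2 CPM relative to controls. The 5 nearest genes were Cldn14 (0.06 log2 units), Tspan9 (0.07), Pih1d1 (0.09), Muc1 (0.10) and Sftpd (0.10), over 6 libraries. Cldn14, a tight junction protein, measured 42.9, 29.1 and 23.5 CPM in AL/NP replicates 1 to 3 and 27.3, 20.8 and 20.1 CPM in controls, highest in AL/NP replicate 1 as the mean profile was. Among the 10 genes, Fos (0.29) and Ier2 (0.30) lay nearest to the mean profile and Jun (0.95) and Egr1 (1.27) farthest from it.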

How the data were processed

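The authors deposited raw read counts per Ensembl gene for 6 libraries, whole numbers without normalization, as the values showed. Per the submitters' processing notes, the genome build was GRCm38 and the tools were STAR 2.6.1a, featureCounts and DESeq2 1.26.0; annotation release, strand setting and treatment of multiply matching reads are not given in the sources used here. Of 41388 identifiers, 40254 had a symbol. Coordinates and exonic lengths came from GENCODE M21 (GRCm38), promoters from RefSeq (GRCm38.p6).

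AL/NP was compared with control by edgeR 4.0.16 in R 4.3.3 (robust quasi-likelihood test, TMM, filterByExpr with a minimum count of 10, 15939 genes, Benjamini-Hochberg over all of them, threshold 0.05). SE is the absolute log2 fold change over the square root of F. Log2 CPM used a prior count of 2. No pair of libraries looked duplicated (lowest chi-square per degree of freedom 30.6). The test was also run on counts simulated independently for each library from the fitted dispersions, and no result here rests on that run. Alternatives used DESeq2 1.42.0 and limma 3.58.1 among others. The genes, the lists and the alternatives were chosen with earlier results of these data known. Named were the 10 genes, the 3 smallest p-values of each list with any called gene, and the 5 nearest profiles.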

Additional observations from a re-analysis of the deposited data

How the results depend on the processing

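Over 15 alternatives 0 of the 10 genes was called, and the lowest adjusted p was 0.0508 (Egr1, DESeq2). Fos, Fosb, Junb, Ier2, Ier3, Atf3, Dusp1 and Egr1 kept their direction in every alternative that tested them. Btg2, at -0.02, was at 0.0190 with library totals only, a scaling that put the median over all genes at 0.13, at 0.0264 with the replicate number as a block and 0.0257 with limma-voom. With 1 library left out Btg2 ranged from -0.41 to 0.29 and Jun from -0.49 to 1.24, and the median of the 10 genes from 0.18 (without AL/NP replicate 1) to 0.90 (without control replicate 1). With at least 50 counts in 3 libraries Fosb was not tested.

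The count of called genes, 13 (10 higher, 3 lower), was 846 with DESeq2 (433 and 413), 747 without a filter (374 and 373), 23 with the replicate block (9 lower), 8 with limma-voom (1 lower), and 0 (0 higher, 0 lower) with library totals, with at least 50 counts in 3 libraries or without robust estimation. With 1 library left out it was 0 to 4 (0 to 3 higher, 0 to 2 lower). The causes were not tested. Whether the replicate numbers pair the libraries cannot be decided from 3 libraries per group. Deviations of same-numbered libraries correlated at -0.05, 0.04 and 0.08 over genes, and AL/NP replicates 1 and 2 correlated best with another number. With the replicate block the SE was smaller for all of the 10 genes but Egr1. It went from 0.60 to 0.19 for Ier3 (adjusted p = 0.0641, edgeR) and from 0.36 to 0.17 for Junb (adjusted p = 0.0804, edgeR).

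The median of the other immediate early transcription factors was 0.29 with DESeq2, 0.44 with limma-voom and 0.28 without a filter. With 1 library left out it was 0.13 to 0.63. The DESeq2 and unfiltered medians cover all 19 listed genes, because Egr3 and Arc, too low for the main filter, were included. They are therefore not medians of the same genes as in the main fit. The median of later AP-1 target genes was 0.42 with at least 50 counts (0.36 to 0.79). That of the other AP-1 subunits was 0.57 with library totals (0.26 to 0.59). For upstream kinases and factors it was 0.0938 with library totals (-0.0608 to 0.106). Heat shock genes had 2 calls, 7 with DESeq2, 6 without a filter, 0 with library totals, at least 50 counts or no robust estimation, and 0 to 2 with 1 library left out. Over all genes DESeq2 called 5.17%, and 747 genes were called without a filter, a share not calculated here. Lists without a call had, with DESeq2 and without a filter in turn, 5 and 5 of 19 listed (transcription factors) and 7 and 3 of 16 (secreted and surface). Feedback had 2 and 1 of 25, and upstream 1 and 1 of 19, the latter near the DESeq2 share. Later targets had 2 and 3 of 15, and 2 with the replicate block. Integrated stress had 1 and 1 of 10, and p53 2 and 1 of 13. Fosb had the fewest counts of the 10 genes, 11 to 51 per library, so its relative counting error was the widest.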

Other observations

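Egr1 and its relative Egr2, a pair picked after their values were seen, had fold changes of opposite sign. Egr2 measured 1.18, 1.18 and 2.03 CPM in AL/NP replicates 1 to 3 and 1.03, 0.359 and 0.777 CPM in controls. All 3 AL/NP libraries were above the controls, at a log2 fold change of 1.02 (SE 0.44, adjusted p = 0.246, edgeR), whereas Egr1 was at -0.98. The same held for another pair picked that way, Zfp36 and Zfp36l2, which are not among the 10 genes. Zfp36, which encodes the RNA-destabilising protein tristetraprolin, measured 57.9, 74.4 and 58.0 CPM with AL/NP and 75.1, 87.7 and 120 CPM in controls. All AL/NP libraries of Zfp36 were below the controls, at -0.57 (SE 0.20, adjusted p = 0.198, edgeR), while its relative Zfp36l2 was at 0.56. Of all genes, 14.5% separated the groups higher with AL/NP and 15% lower.

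Cd3e, a T cell receptor subunit gene, measured 16.6 CPM in AL/NP replicate 1, 2.67 and 1.22 CPM in AL/NP replicates 2 and 3, and 0.497 to 0.773 CPM in controls. Cd3d and Cd3g, which encode other subunits of the same complex, measured 0.626 and 0.695 CPM in AL/NP replicate 1, so Cd3e made up most of the T cell marker sum there.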
